A study of Homo sapiens with 2 samples.

Results

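Histone deacetylases remove acetyl groups from lysines of histones and of many other proteins, and the zinc-dependent enzymes are sorted by sequence into classes I, IIa, IIb and IV. Class I enzymes work in nuclear corepressor complexes, class IIa enzymes shuttle between nucleus and cytoplasm and act largely as scaffolds, and HDAC6 of class IIb is a mainly cytoplasmic enzyme that deacetylates alpha-tubulin and cortactin and binds ubiquitin through a zinc finger. CRISPR guides against 9 of these genes, HDAC3 to HDAC11, were followed here through a pooled knockout screen. They were chosen by the gene name in the table of guide reads and make up 9 of the 20915 protein-coding genes and microRNAs targeted, with 6 guides each and 54 guides in all. HDAC6 led to their choice, because 1 of its guides was read only after sorting, with the most reads of all such guides. HDAC1 and HDAC2 were kept apart as neighbours of the same family.

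The cells were SK-OV-3, an established human ovarian cancer cell line, with a stably integrated 2-colour reporter for transcriptional readthrough (TRT) in which mCherry stands ahead of the COMMD3 to BMI1 junction and EGFP behind it, so that EGFP marks transcripts that continued beyond the upstream gene. They received the GeCKO v2.0 lentiviral guide pool at a multiplicity of infection near 0.3 and were selected with puromycin at 2 μg/mL. Guides were sequenced from unsorted reporter cells in 1 library, and in the other from a flow-sorted mCherry+ EGFP- population (TRT-negative), so the cells of both libraries carried the reporter and had been through the same transduction and selection. In its title the control library carries the names of mCherry and EGFP together, and reading it as unsorted cells rests on the description of the design. Reads summed over all guide rows were 12882989 before and 12444427 after the sort. The 1000 non-targeting guides filled 2000 of these rows. Each condition was sequenced from 1 library, so differences between them could not be tested, and all intervals below cover counting error only. Reads show that a guide was present in the cells, and neither editing of a gene nor loss of its protein was measured.

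Of the 54 deacetylase guides, 39 had no read in either library (72.2%, exact Clopper-Pearson 95% interval 58.4% to 83.5%), against 76.9% of all protein-coding guides. Another 9 guides were read only in the TRT-negative library (16.7%, interval 7.92% to 29.3%), against 12.6% of protein-coding guides, and 6 were read in both (11.1%, interval 4.19% to 22.6%), against 9.95%. No deacetylase guide was read only in unsorted cells, where 0.516% of protein-coding guides lay. A guide was called enriched when the log2 ratio of its TRT-negative to its unsorted normalized count, with 1 added to both, lay above the 95th percentile of the non-targeting guide rows, which was 5.93. Of the 54 guides 3 were enriched (5.56%, interval 1.16% to 15.4%), against 2.87% of protein-coding guides, and they belonged to HDAC6, HDAC5 and HDAC8. At the level of genes, 3 of 9 had an enriched guide, against 16.0% of protein-coding genes. These reads were also the ones by which HDAC6 was chosen, so the counts describe the libraries and support nothing further. No row of the 54 guides lay beside a row with identical counts, which would be a sign of a guide shared between gene copies.

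**Figure D1:**
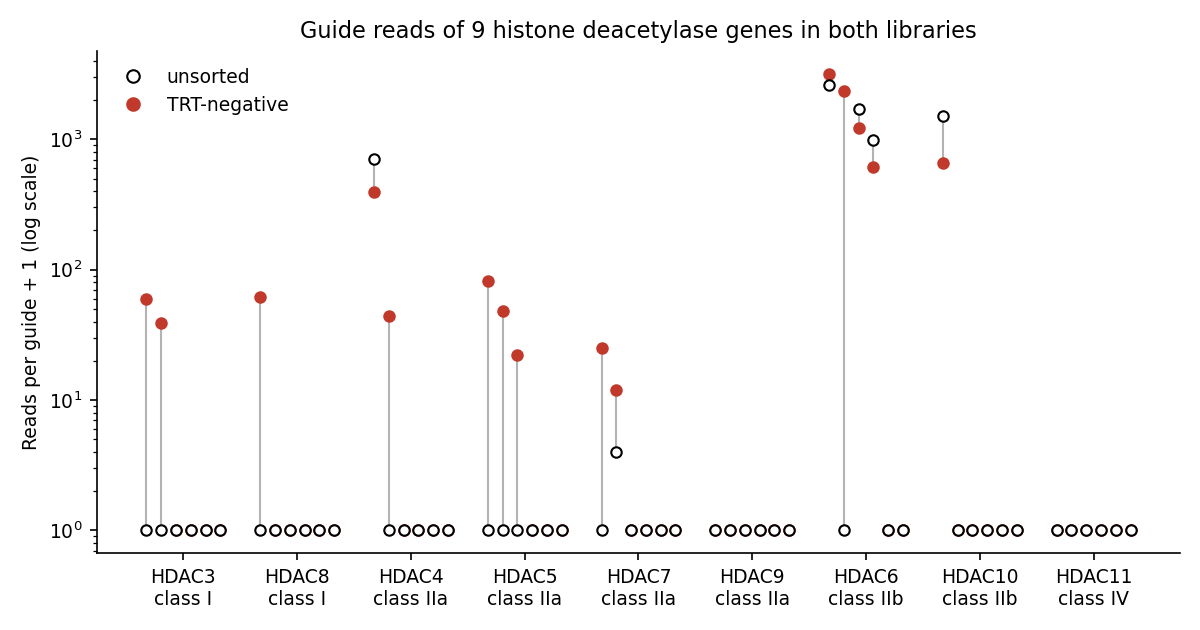
A line joins the reads of 1 guide before the sort (open circle) and after it (filled circle), with 1 added and the y axis on a log scale, so that guides without a read lie at 1 (the open marker covers the filled one there). HDAC6 had 4 guides with between 613 and 3194 TRT-negative reads, while HDAC9 and HDAC11 had none.

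HDAC6, on the forward strand of chromosome X at 48801377 to 48824982 (hg38, GENCODE 44), stood apart from the other 8 genes in how many reads it carried. Its guide HGLibA_21017 had 0 unsorted and 2349 TRT-negative reads. Guide HGLibB_20991 went from 2619 to 3194 reads, guide HGLibB_20989 from 1710 to 1215, and guide HGLibA_21019 from 979 to 613. The remaining guides, HGLibA_21018 and HGLibB_20990, had no read in either library. The gene was thus carried by 4 of its 6 guides in the TRT-negative cells, which was the case for at least 4 guides in 3.56% of protein-coding genes, and 3 of the 4 were abundant before the sort. With all 6 guides summed, HDAC6 had 5308 unsorted and 7371 TRT-negative reads. These sums were above those of 98.8% and 99.3% of protein-coding genes. Of all reads on the 9 deacetylase genes, HDAC6 took 70.6% before and 83.6% after the sort.

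The sorted-only guide of HDAC6 held 31.9% of the TRT-negative reads of the gene. Its 2349 reads (exact Poisson interval 2255 to 2446) ranked 1 among the 14434 protein-coding guides without an unsorted read, and also 1 among sorted-only guides of every kind. The next of them had 2152 reads, and the median was 35. The rank is a description, since these reads led to the choice of HDAC6. Against a floor of 3 unsorted reads the guide was at least 780-fold higher in the TRT-negative library, with the lower end of the Poisson interval as its TRT-negative count. This bound holds for the sampling of reads, and does not cover a guide lost in the sampling of cells or DNA. Guides of that abundance were mostly read before the sort too. This is also given as a description, since the 0 unsorted and 2349 TRT-negative reads were what led to HDAC6. Of 1303 protein-coding guides with between 1568 and 3522 TRT-negative reads, that is within 1.5-fold of it, 5 had no unsorted read (0.384%). The median of these guides in the unsorted library was 1246 reads, and 6 of them had fewer than 30. The other 4 without an unsorted read, named after their values were seen, belonged to SLC18A3, SAMD3, RRN3 and C4orf21. By its abundance in the TRT-negative library alone the guide was not extreme, since it ranked 1175 among the 25788 protein-coding guides read there.

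**Figure D2:**
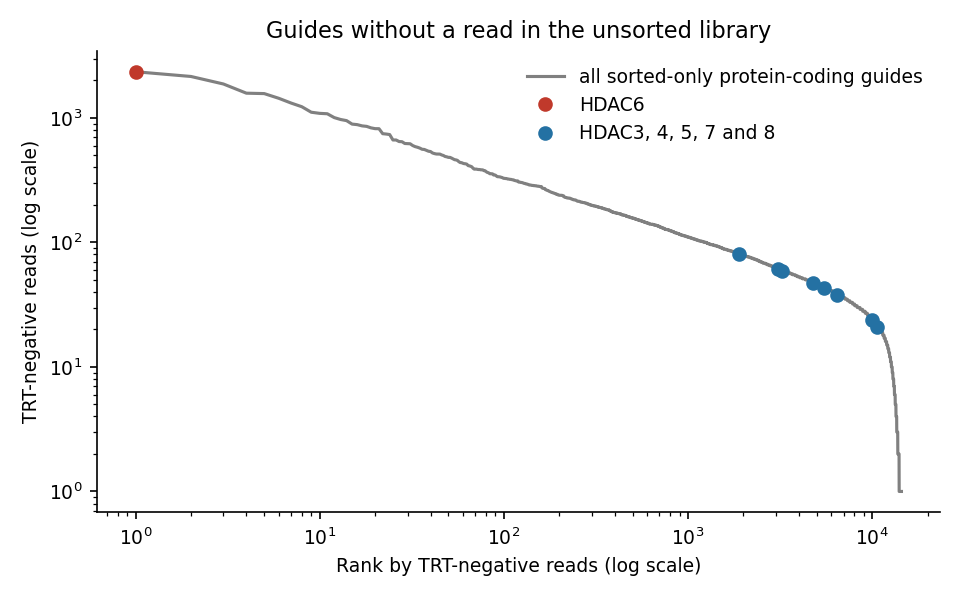
The grey line ranks all 14434 protein-coding guides without an unsorted read by their TRT-negative reads, with both axes on a log scale, and dots mark the deacetylase guides among them. The HDAC6 guide holds rank 1 with 2349 reads, and the 8 guides of HDAC3, HDAC4, HDAC5, HDAC7 and HDAC8 lie between ranks 1883 and 10698.

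The HDAC6 guides read in both libraries were nowhere near the threshold of enrichment. Guide HGLibB_20991 had a fold of 1.27 (interval 1.20 to 1.33), guide HGLibB_20989 one of 0.738 (interval 0.685 to 0.794) and guide HGLibA_21019 one of 0.650 (interval 0.587 to 0.720). The intervals of the last pair overlap, and that of the first lies above them, so that the folds within 1 gene differed by more than counting error. Summed over the 3 guides, 5308 unsorted reads stood against 5022 TRT-negative reads, a fold of 0.982 (interval 0.945 to 1.02), or -0.03 on the log2 scale. Their log2 ratios were 0.34, -0.44 and -0.62, whereas the sorted-only guide stood at 11.23 with the added count of 1. Scaled to the non-targeting guides in place of the deposited scaling, they were 1.18, 0.40 and 0.22 in the same order, so that the mixed direction held under the deposited scaling and all 3 lay above 0 under the other.

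Since a scaling shifts all guides of such abundance nearly alike, the HDAC6 guides were also set against guides of similar unsorted abundance. The log2 ratio of the 11354 protein-coding guides read in both libraries had its median at -0.54 with an SD of 1.47, and 37.4% of them lay above 0 under the deposited scaling, against 58.5% with a median of 0.29 when scaled to the non-targeting guides. Among the 2731 guides within 2-fold of HGLibB_20991 in unsorted reads the median was -1.07 with an SD of 1.14, and this HDAC6 guide lay above 83.7% of them. For HGLibB_20989 the median over 4933 such guides was -1.003 with an SD of 1.29, and it lay above 64.9%. For HGLibA_21019 it was -0.75 over 6806 guides with an SD of 1.29, and it lay above 54.1%. The 3 guides thus stood above the medians of comparable guides by 1.41, 0.56 and 0.13 on the log2 scale. For HGLibB_20991 this exceeded 1 SD, while HGLibB_20989 lay within 1 SD and HGLibA_21019 was close to the median. None of these distances was tested.

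The HDAC6 guides read in both libraries were closer to one another than those of most genes with at least 3 guides of 30 or more unsorted reads. The HDAC6 guides had between 979 and 2619 unsorted reads, so abundance was not matched in this comparison. The log2 ratios of HDAC6 had an SD of 0.51 over the 3 guides. The median SD was 1.08 over 347 genes with at least 3 guides that had 30 or more unsorted reads, and 17.0% of these genes had a smaller one than HDAC6. Such a number of well-read guides was itself uncommon: 418 genes, or 2.19%, had at least 3 guides read in both libraries. Of those 418 genes, 206 (49.3%) also had a guide read only in TRT-negative cells, HDAC6 among them. The same share over all protein-coding genes is not given here, and 12.6% of all protein-coding guides were sorted-only.

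**Figure D3:**
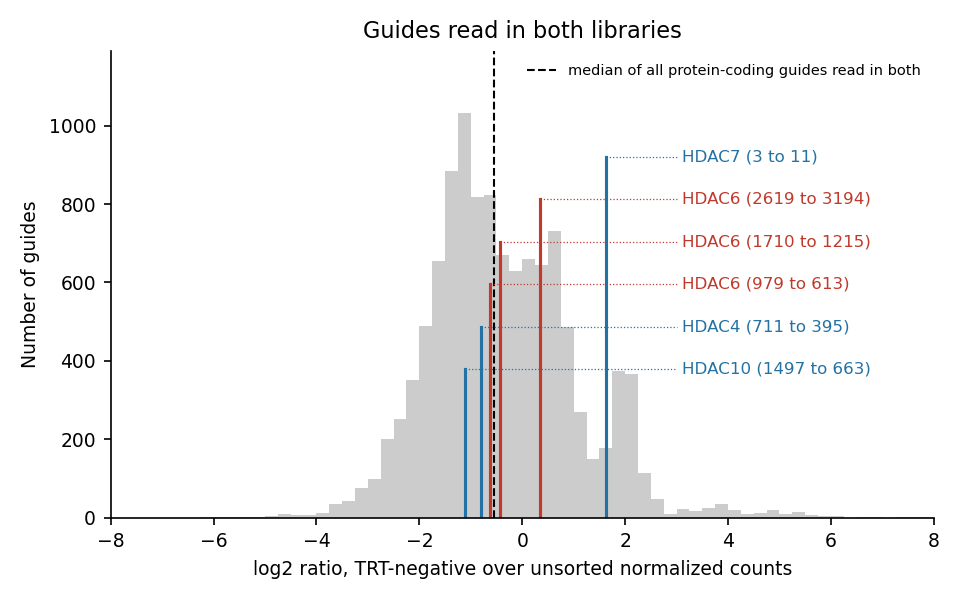
Grey bars count protein-coding guides read in both libraries by log2 ratio of normalized counts (TRT-negative over unsorted), the dashed line is their median of -0.54, and coloured lines mark the deacetylase guides with their unsorted and TRT-negative reads. The 3 HDAC6 guides lie between -0.62 and 0.34, inside the main body of the distribution.

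The ratios of all guides read in both libraries did not form a single peak. In steps of 0.25 on the log2 scale, the number of guides was highest at 1031 between -1.25 and -1.0, rose again to 732 between 0.5 and 0.75, fell to 151 between 1.25 and 1.5 and came back to 374 between 1.75 and 2.0. The HDAC6 guides lay between the first and the second of these rises. The ratio of a single abundant guide is thus spread over a range in which guides of unrelated genes cluster at several values, and the part of this in the HDAC6 values was not tested.

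The genes most like HDAC6 in this respect were those with at least 3 guides read in both libraries, ordered by the TRT-negative reads of their highest sorted-only guide. HDAC6 stood first of 206 genes, a place that its choice by this same guide had fixed. C3orf43 followed with a sorted-only guide of 819 reads beside guides with 547, 449 and 680 reads before and 742, 717 and 551 after it, in the same order. MOSPD1, a membrane protein with a major sperm protein domain, had a sorted-only guide of 356 reads beside guides going from 972 to 1550, from 371 to 595 and from 895 to 50. The purinergic receptor-like P2RY8, entered under 2 names with identical counts, had 209 reads, and UNC93B1, a trafficking chaperone of Toll-like receptors, had 192. The median over the 206 genes was 67 reads, and 3 of them, HDAC6 included, reached 300.

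Of the class I enzymes, HDAC3 is the catalytic subunit of nuclear corepressor complexes, and its gene lies on the reverse strand of chromosome 5 at 141620876 to 141636849. After the sort its guides HGLibA_21009 and HGLibA_21010 had 59 and 38 reads, both from 0 unsorted reads, and the other 4 had none. HDAC8, an enzyme known for deacetylating the cohesin subunit SMC3, lies on the reverse strand of chromosome X at 72329516 to 72573101. It had a single guide with reads, 61 in the TRT-negative and 0 in the unsorted library. These guides lay on either side of the line for enrichment, since 60 reads were needed where no unsorted read was present. The HDAC8 guide with 61 reads (Poisson interval 46.7 to 78.4) was called enriched and the HDAC3 guide with 59 reads (interval 44.9 to 76.1) was not, and counting error does not separate them.

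The class IIa enzymes repress MEF2 transcription factors and are held in the cytoplasm by 14-3-3 proteins after phosphorylation. HDAC5, on the reverse strand of chromosome 17 at 44076746 to 44123702, was read after the sort on guides with 81, 47 and 21 reads, and none of its 6 guides had an unsorted read. It was the deacetylase with most sorted-only guides, and 3.20% of protein-coding genes had at least 3 such guides. The guide with 81 reads (Poisson interval 64.3 to 101) was enriched, and 13.3% of sorted-only protein-coding guides had as many or more. This call and that of HDAC8 were lost at the 99th percentile of non-targeting rows. Both were also lost when the threshold was set over rows with at least 30 reads in either library, which raised it to 7.17. The HDAC6 guide was the 1 left, as its choice by the same reads had fixed. HDAC4, on the reverse strand of chromosome 2 at 239048168 to 239401654, had a sorted-only guide with 43 reads and another guide with 711 unsorted and 395 TRT-negative reads, a fold of 0.577 (interval 0.509 to 0.653). HDAC4 thus had a sorted-only guide and a guide present before the sort, as HDAC6 did. Its 43 sorted-only reads were near the median of 35 over all sorted-only protein-coding guides, of which 39.3% had as many or more. Of all protein-coding guides, 12.6% were sorted-only and 9.95% were read in both libraries, and the share of genes with both kinds is not given here. HDAC7, on the reverse strand of chromosome 12 at 47782722 to 47833132, had a sorted-only guide with 24 reads and another that went from 3 to 11, a ratio of 3.81 (interval 1.01 to 21.2). Among guides of comparable unsorted abundance the HDAC4 guide lay above 43.3% and the HDAC7 guide above 53.1%.

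HDAC9, the remaining class IIa gene, on the forward strand of chromosome 7 at 18086949 to 19002416, had no read on any guide in either library. HDAC11, the single class IV enzyme, which removes long-chain acyl groups from lysines, lies on the forward strand of chromosome 3 at 13479724 to 13506424 and likewise had no read. A count of 0 allows up to 3 reads per guide, or an RPM of 0.233 in the unsorted and of 0.241 in the TRT-negative library (RPM, reads scaled to the library total). The lack of reads was not rare, since 22.1% of protein-coding genes had no guide read in either library, and nothing can be said of these genes in the sort.

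HDAC10, the other class IIb enzyme, acts on acetylated polyamines and is the closest relative of HDAC6 among the 9. Its gene lies on the reverse strand of chromosome 22 at 50245183 to 50251405. A single guide had reads, going from 1497 to 663, a fold of 0.460 (interval 0.419 to 0.504), and the other 5 had none. Its log2 ratio of -1.12 lay above 42.1% of the 5600 guides of comparable unsorted abundance. HDAC10 had no sorted-only guide. Before the sort it was read on 1 of its 6 guides and HDAC6 on 3 of 6. Of the class IIb genes only HDAC6 had a guide that was seen only after the sort. That HDAC6 had one was fixed by its choice through this guide. Since 12.6% of all protein-coding guides were sorted-only, the lack of one in HDAC10 does not set the genes apart. Guide HGLibB_20989 of HDAC6, with a similar 1710 unsorted reads, had a fold of 0.738. Its interval does not overlap that of HDAC10, but both cover counting error only. Guides of comparable unsorted abundance had an SD of 1.29 on the log2 scale around either guide, so no difference between the genes follows from these 2 guides.

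**Figure D4:**
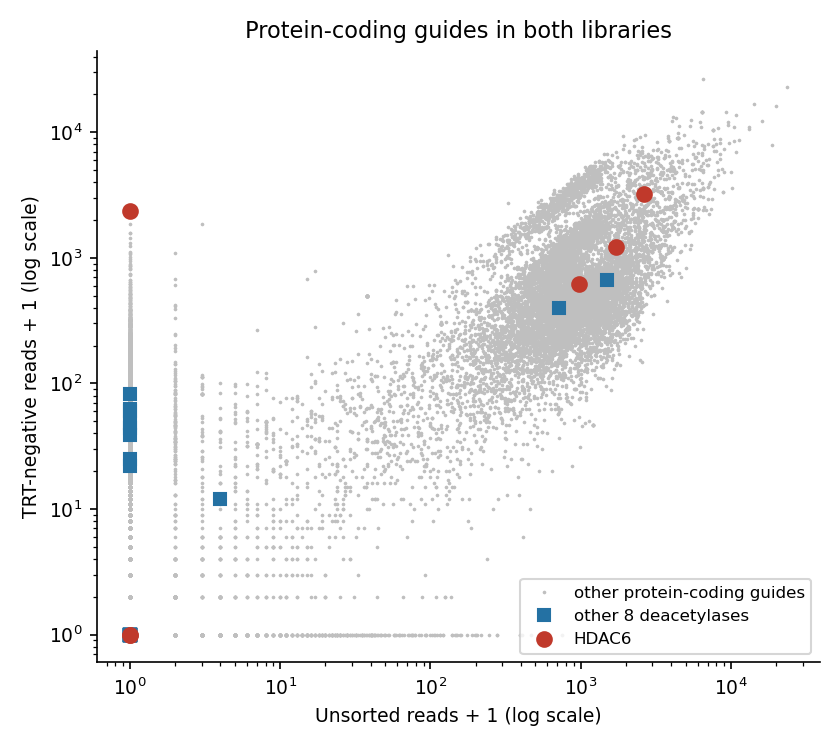
Each point is 1 guide, with unsorted reads plus 1 on the x axis and TRT-negative reads plus 1 on the y axis, both on a log scale, grey for protein-coding guides, squares for the other 8 deacetylases and circles for HDAC6. The HDAC6 guide with 2349 TRT-negative reads lies at the upper end of the column of guides without an unsorted read, and the sorted-only guides of the other genes lie in that column between 21 and 81 reads.

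Outside HDAC6, the 8 sorted-only guides belonged to 5 genes and had between 21 and 81 TRT-negative reads with a median of 45. Over all sorted-only protein-coding guides the median was 35 reads. The HDAC6 guide exceeded the highest of the 8 guides 29.0-fold. That it lay above them was fixed by its choice through the same reads, so this fold is a description. Without HDAC6, 2 of 48 guides were enriched (4.17%, interval 0.509% to 14.3%), 16.7% were sorted-only and 6.25% were read in both libraries. Of the 6 deacetylase guides read in both libraries, 2 lay above 0 and 4 below it in log2 ratio, with a median log2 ratio of -0.53, close to the -0.54 of all protein-coding guides. With the scaling to non-targeting guides, 5 of the 6 lay above 0, as did 58.5% of protein-coding guides against 37.4%, and the median of protein-coding guides moved to 0.29. The 3 enriched guides all came from half-library A of the pool, which supplied 3 of the 6 guides of each gene. There 3 of 27 guides were enriched (11.1%, interval 2.35% to 29.2%), against 2.9% of protein-coding guides of that sub-library. None of the 27 guides of half-library B was enriched (0%, interval 0% to 12.8%), against 2.84% of protein-coding guides there. The intervals overlap and each holds its background share, so no difference between the sub-libraries follows.

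HDAC1 and HDAC2, the paired catalytic subunits of the NuRD, Sin3 and CoREST complexes, had no sorted-only guide, and each had 2 guides read in both libraries. For HDAC2 the reads were 2829 before and 4719 after the sort on 1 guide, and 53 and 15 on the other. For HDAC1 they were 1275 and 745, and 54 and 250. Under the deposited scaling the guides of each gene lay on both sides of 0 in log2 ratio. Scaled to the non-targeting guides this still held for HDAC2, at 1.64 and -0.90, while both HDAC1 guides lay above 0, at 0.12 and 3.09. None of the 12 guides was enriched.

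The sirtuins are the NAD-dependent deacetylases, unrelated in structure to the zinc-dependent enzymes. Of their 42 guides 1 was enriched (2.38%), 8 were sorted-only (19.0%, against 12.6% of protein-coding guides) and 3 were read in both libraries. The median log2 ratio of these 3 guides was -1.46, against -0.54 over all protein-coding guides read in both. The enriched guide belonged to SIRT2, the other known deacetylase of alpha-tubulin, and had 142 TRT-negative and 0 unsorted reads. Other SIRT2 guides counted 1539 unsorted and 432 TRT-negative reads, and 638 and 222. SIRT3, a mitochondrial deacetylase, had 1 guide with reads, going from 524 to 376.

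Substrates and partners of HDAC6, such as tubulin, cortactin, HSP90, VCP and the autophagy receptor SQSTM1, had no enriched guide among 90 guides of 15 genes. These genes had 7 sorted-only guides (7.78%, against 12.6% of protein-coding guides). Among the 6 guides read in both libraries 4 lay above 0 under the deposited scaling, with a median log2 ratio of 0.34. Of all protein-coding guides read in both, 37.4% lay above 0, with a median of -0.54. Scaled to the non-targeting guides, these became 58.5% and 0.29. A direction of the 6 guides was not tested. One SQSTM1 guide had 736 reads before and 1232 after the sort, and the stress granule protein G3BP1 one with 499 and 745 and another with 0 and 14.

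Of the proteins that work with HDAC3 in corepressor complexes, GPS2 was read on 1 guide, with 1335 reads before and 328 after the sort, and a TBL1X guide had 493 and 155. TBL1X also had sorted-only guides with 50 and 27 reads. Of the partners and regulators of class IIa enzymes, 2 of 102 guides were enriched (1.96%), 1 of the transcription factor MEF2A with 175 reads and 1 of the 14-3-3 protein YWHAZ with 95, both from 0. MEF2A had a further sorted-only guide with 17 reads. In the polyamine list set beside HDAC10, 2 of 42 guides were enriched (4.76%), of the spermine oxidase SMOX with 91 reads and of the spermidine synthase SRM with 71. Further sorted-only guides had 34 reads for SMOX, and 32 and 11 for SRM. These shares stand against the 2.87% of all protein-coding guides given above, and none was tested.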

How the data were processed

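Guide cassettes were amplified from genomic DNA and sequenced, with 1 library each of unsorted and TRT-negative cells. The deposited count table holds raw reads per guide, and the authors also deposited a normalized signal equal to the raw count times 0.982 (unsorted) or 1.02 (TRT-negative). The submitters' processing notes name MAGeCK and hg38; for its version and the assignment of reads, the sources used here give nothing. Tables of the authors' MAGeCK ratios, scores and p-values were not used.

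The log2 ratio of normalized counts used a pseudocount of 1. Exact Clopper-Pearson intervals (95%) of the split of reads gave those of folds. Tables held guide names without sequences, so none are shown. Gene positions are from GENCODE 44. Members and lists were chosen with earlier results of these data known. Named were all members, the first 2 genes of each list by enriched guides (ties by TRT-negative reads), and the 5 genes most like HDAC6. Counts over the list of HDAC3 partners are not reported here. Other scalings, pseudocounts, thresholds, filters, half-libraries and row sets were tried. Calls and intervals were tested on simulated data. The simulated calls covered guides with at least 30 unsorted reads, so calls on guides without an unsorted read, as all enriched deacetylase guides were, were not tested. Versions were scipy 1.17.1, numpy 2.4.6, matplotlib 3.10.9, pandas 2.3.3 and Python 3.11.15.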

Additional observations from a re-analysis of the deposited data

How the results depend on the processing

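No paired analysis was possible because each condition had 1 library. Of 65 values under the alternatives, 45 stayed within the counting interval or within 1.5 times the count. Part of these could not move, so the tally is no measure of stability. The sorted-only count ignores scaling, pseudocount and threshold, the log2 ratios ignore the threshold, and the summed ratio ignores the pseudocount. Enriched guides numbered 1 (1 gene) at the 99th percentile and with at least 30 reads in either library, and this was the HDAC6 guide. That it stayed was given by its choice, since it had the most reads of all sorted-only guides. They numbered 6 (5 genes) at the 95th percentile of olfactory receptor guides and 0 (0 genes) in half-library B. Half-libraries A and B held 5 and 4 sorted-only guides. The log2 ratio of the sorted-only HDAC6 guide was 7.57 with scaling to the library total, 12.10 with scaling to non-targeting guides, 12.23 with a pseudocount of 0.5 and 8.91 with one of 5, since it rests on the count added to 0. The summed log2 ratio of the HDAC6 guides read in both libraries was 0.82 with scaling to non-targeting guides, -0.62 in half-library A (1 guide) and 0.0804 in B. The median over the 6 deacetylase guides read in both became 0.31 with scaling to non-targeting guides, which moves all guides by 1 factor, -0.87 in half-library A and -0.0492 in B. Half-library B held no sorted-only HDAC6 guide. Depth limits calls near 60 reads, and with 1 library per condition no spread between samples is known.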
